A study of Mus musculus with 16 samples.

Results

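The clustered replication-dependent histone genes of the mouse were measured in 16 transplanted mammary tumours, 4 in each of 4 groups. All genes whose symbol begins with Hist1h, Hist2h, Hist3h or Hist4h were taken, without those marked -ps in the symbol, which gave 69 of the 55146 genes with a value: 6 genes for the linker histone H1, 20 for H2A, 18 for H2B, 12 for H3 and 13 for H4. The rule used names only and no measured value, but it was set with earlier results of these data known. Of the H2A genes it took, 2, Hist1h2aj and Hist1h2al, are annotated as pseudogenes, while the other 67 genes are protein-coding. The tumours came from MMTV-PyMT transgenic donors aged 12 weeks, in which a mammary tumour virus promoter drives the polyoma middle T oncogene, and they were grown in the 4th mammary fat pad of FVB recipients. The groups were the combination of anti-PD-L1 and sonidegib, sonidegib at 20 mg/kg each day, anti-PD-L1 at 5 mg/kg, given 2 times weekly, and vehicle, each over 28 days, and the combination used the doses of the single agents. Anti-PD-L1 is an antibody against an immune checkpoint ligand, and sonidegib blocks Smoothened, a membrane protein needed for Hedgehog signalling. Nothing in the labels ties a tumour to its own donor, so each p-value reflects how these particular tumours varied, which may be partly technical.

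Replication-dependent histone genes supply the histones that package newly copied DNA, and their transcripts accumulate in S phase and are degraded when DNA synthesis stops. Their messenger RNAs are the main class in animal cells without a poly(A) tail: they end in a conserved stem-loop that is bound by the stem-loop binding protein SLBP and is made by cleavage directed by the U7 small nuclear ribonucleoprotein. Replication-independent histones such as H3.3 and H2A.Z are encoded by separate genes with polyadenylated transcripts that are made throughout the cell cycle. A method that selects poly(A) tails therefore loses most RNA of the clustered genes, whereas depletion of ribosomal RNA keeps it. The labels of these libraries name polyadenylated RNA as the molecule and also describe ribosomal RNA depletion, and the clustered histones bear on that conflict.

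The stem-loop was looked for in the annotated transcripts (GENCODE release M21, GRCm38). The search asked for a perfectly paired 6-base-pair stem beginning with GG around a 4-base loop beginning with TT. Of the 69 genes, 44 held a match, and all matches had stems of the form GGNNCT to AGNNCC. These 44 carried 6 versions, and representatives are given below 5′ to 3′ with up to 7 bases on either side, stems in capitals, loop and flanks in lower case, and coordinates that cover the stem and loop.
Hist1h1c (chr13:23739512-23739527, plus strand): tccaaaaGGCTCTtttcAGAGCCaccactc
Hist1h2ab (chr13:23751572-23751587, plus strand): aaacaaaGGCTCTtttcAGAGCCacccaca
Hist1h3f (chr13:23544932-23544947, plus strand): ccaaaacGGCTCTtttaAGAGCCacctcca
Hist2h2ac (chr3:96220418-96220433, minus strand): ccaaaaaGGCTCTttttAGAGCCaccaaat
Hist1h4m (chr13:21812129-21812144, plus strand): aactaaaGGCCCTtttcAGGGCCatc
Hist1h4i (chr13:22040966-22040981, minus strand): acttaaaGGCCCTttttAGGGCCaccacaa
Hist1h4j (chr13:21735437-21735452, plus strand): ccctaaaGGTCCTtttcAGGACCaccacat
The stem of Hist1h1c and Hist1h2ab with the loop tttc was the most frequent, in 26 genes of H1, H2A, H2B and H3 and in no H4 gene. The same stem had the loop ttta in 6 genes, among them Hist1h3f, and tttt in Hist2h2ac alone. The H4 genes carried other stems: the stem of Hist1h4m was found in 7 H4 genes with the loop tttc and in 2, among them Hist1h4i, with tttt, and the stem of Hist1h4j was found in 2. Of the other 25 genes, 11 were annotated by their coding sequence alone, so their 3′ end was not in the annotation, and 14 held no match in this search. Some of these 14 also have short annotated transcripts, among them Hist1h2af with 399 bases and the pseudogene Hist1h2al with 339. A stem-loop may lie beyond such an annotated end. The annotated end lay within 20 bases after the loop in 3 genes (Hist1h2ab, Hist1h2ap and Hist1h4m) and farther downstream in 41, with 19 and 25 at a limit of 50 bases.

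Nearly all of the genes were expressed in every tumour. Levels are given in FPKM, fragments scaled by the length of the transcript and by the mapped fragments of the library, as the authors deposited them. At least 1 FPKM was found in all 16 libraries for 66 genes, the mean over the libraries was at least 10 FPKM for 61 and at least 100 FPKM for 31, and 43 of the 69 were among the 1000 genes with the highest mean. The means summed to 11238 FPKM, of which H4 made up 37.0%, H2B 30.9%, H2A 13.6%, H3 13.6% and H1 4.92%. The 56 Hist1 genes on chromosome 13 held 92.2% of this sum. Of these, 55 lie in the Hist1 cluster at chr13:21715763-23934851 and held 90.7%, while the processed pseudogene Hist1h2al (chr13:51202727-51203065) lies outside it. The 10 Hist2 genes on chromosome 3 held 7.16%, and the Hist3 pair on chromosome 11 and Hist4h4 on chromosome 6 held under 1% between them.

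Among the linker histones, which bind DNA at the entry to the nucleosome, Hist1h1c (ENSMUSG00000036181.2, chr13:23738808-23740367, plus strand) was highest at 174 FPKM (range 98.2 to 351), followed by Hist1h1b at 124 FPKM (range 54.3 to 283). Among the H2A genes Hist1h2ai was highest at 446 FPKM (range 169.7 to 836) and Hist1h2aj, an annotated unprocessed pseudogene with 6.93% own 50-base windows, was next at 239 FPKM (range 83.5 to 452). For H2B, the partner of H2A in the nucleosome, the highest were Hist1h2bl (ENSMUSG00000094338.1, chr13:21715763-21716143, minus strand) at 1019 FPKM (range 494 to 2119.9) and Hist1h2bn at 741 FPKM (range 356 to 1542). H3 and H4 form the central tetramer of the nucleosome. Hist1h3h at 357 FPKM (range 139 to 636) and Hist1h3i at 327 FPKM (range 143 to 621) were the highest H3 genes, and Hist1h4k (ENSMUSG00000064288.4, chr13:21750194-21750505, minus strand) at 1186 FPKM (range 489 to 2321) and Hist1h4m at 782 FPKM (range 345 to 1655) the highest of H4 and, in Hist1h4k, of all 69. The ranges of the highest and second-highest gene overlapped in every class. Among genes annotated past the stem-loop the highest were Hist1h4h at 486 FPKM (range 171 to 1111), Hist1h4j at 375 FPKM (range 138 to 835) and Hist1h4f at 272 FPKM (range 108 to 598).

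Of the Hist2, Hist3 and Hist4 genes, Hist2h2bb was highest at 393 FPKM (range 191 to 723), and the H3 genes Hist2h3b, Hist2h3c2 and Hist2h3c1 had means of 98.9, 64.8 and 31.9 FPKM. The H2A genes Hist2h2aa2, Hist2h2aa1 and Hist2h2ac had means of 84.6, 53.0 and 50.2 FPKM, and the H4 genes were at lower levels, Hist4h4 at 45.1 FPKM (range 17.7 to 89.4) and Hist2h4 at 19.6 FPKM (range 9.98 to 39.6). The lowest of these above 1 FPKM were Hist2h2ab at 7.72 FPKM (range 2.29 to 16.3) and Hist3h2ba at 4.33 FPKM (range 1.91 to 8.45), with Hist3h2a at 17.9 FPKM (range 10.2 to 33.3). Near the bottom of the order of all 69 genes, beside Hist3h2ba, stood genes with restricted expression in the animal. Hist1h2ba and Hist1h2aa encode the H2B and H2A variants of male germ cells and Hist1h1t their linker histone. Hist1h2ba, with 61.8% own 50-base windows, was measured at 4.41 FPKM (range 1.45 to 11.6). Hist1h1t was at 0.179 FPKM (range 0.0215 to 0.419), and Hist1h2aa was listed at 0 in 9 of 16 libraries with a highest value of 0.197 FPKM. Hist2h2be, whose product is known from olfactory neurons of the mouse, was at 0.894 FPKM (range 0.324 to 1.66).

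**Figure D1:**
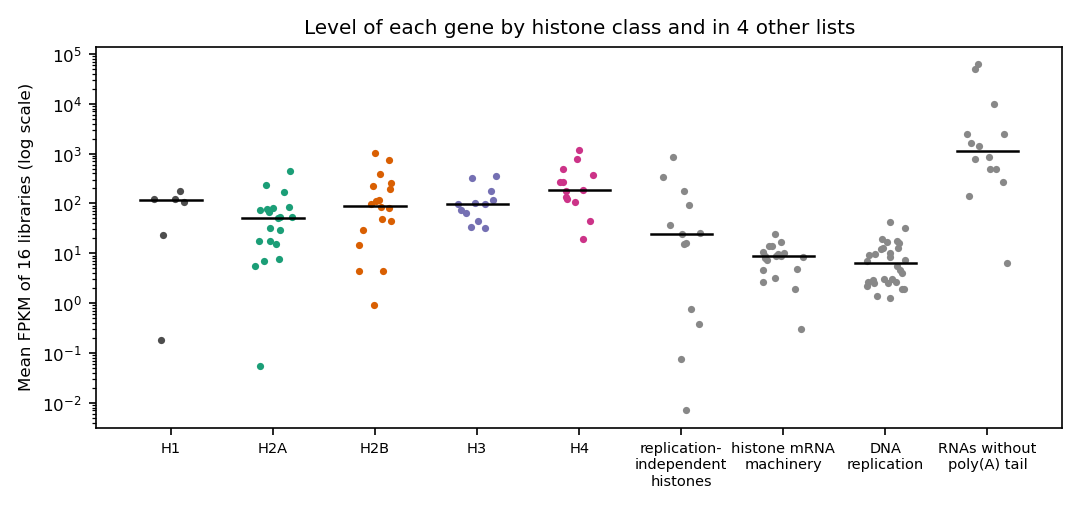
Mean FPKM over 16 libraries on a log scale for each clustered histone gene by class and for genes of 4 other lists, with black bars at the medians. Genes at 0 are not drawn. Most clustered genes lie between 10 and 1000 FPKM, above nearly all DNA replication genes and below the highest RNAs without a poly(A) tail.

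These levels depend on the annotation and on shared sequence. Of the 10 genes with the highest means, 7 were among the 11 annotated by coding sequence alone, whose median level was 357 FPKM, against 73.7 FPKM for the 41 genes annotated past the stem-loop. FPKM divides by the annotated length, and over the 69 genes the level had a Spearman's rho of -0.37 with length, whereas the level multiplied by length had one of 0.034. The share of 50-base windows of a gene's transcripts found in no other gene had a median of 45.0%, and it was under 50% in 36 of the 69 genes. H2A genes shared most, with a median of 26.8% own windows, and H1 genes least, with 98.9%. Hist1h4k had 28.5% own windows, Hist1h2bl 17.2% and Hist1h4m 10.2%, so the division of fragments among such copies is uncertain, while class sums are less exposed to it. Hist2h2bb, which shares all of its windows, also lies within the long noncoding RNA gene Gm42743 on the same strand. Annotated genes overlap 7 of the 69 on the same strand and 23 on the other strand, where most partners are annotated microRNAs.

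Many H2A and H2B genes are arranged back to back, and their levels were often far apart. In 13 such pairs, all of 1 H2A and 1 H2B gene (in 1 of them the pseudogene Hist1h2aj), the annotated starts lay 176 to 306 bases from each other. In the tightest balance, Hist1h2ap and Hist1h2br had means of 80.1 and 84.0 FPKM, a ratio of 1.05. In Hist1h2ak and Hist1h2bn the means were 75.7 and 741 FPKM, in Hist1h2ac and Hist1h2bc 5.58 and 48.0 FPKM, and in Hist2h2ac and Hist2h2be 50.2 and 0.894 FPKM, the last a ratio of 56.1.

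Upstream sequence was compared with all promoters because the classes differ there. A promoter was found in RefSeq (GRCm38.p6) for 62 of the genes, and 60 were used, since the start of the other pair lay over 1000 bases from the coding sequence. In the 250 bases upstream, CCAAT was found on either strand in 49 of 60 (81.7%), against 34.5% of 27025 promoters. It was present in all 6 H1, 17 H2A and 15 H2B promoters and in 3 of 12 H4 promoters. TATAAA was found in 29 of 60 (48.3%), against 12.97% of all promoters. The octamer ATTTGCAT, known as a binding sequence of Oct-1, was found in 7 H2A and 6 H2B promoters and in none of H1, H3 or H4 (21.7% of the 60, against 1.61% of all). The windows of back-to-back pairs and of duplicated genes share bases, so these counts are not of independent sequences. The last 130 bases before the start of the highest H1 and H4 gene and of an H2A and an H2B gene with all 3 motifs are given below on the gene's strand, with motif matches on either strand in capitals.
Hist1h1c (chr13:23738677-23738806, plus strand): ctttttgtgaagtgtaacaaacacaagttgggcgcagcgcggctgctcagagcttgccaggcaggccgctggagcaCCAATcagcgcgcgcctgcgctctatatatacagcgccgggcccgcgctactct
Hist1h2ab (chr13:23750958-23751087, plus strand): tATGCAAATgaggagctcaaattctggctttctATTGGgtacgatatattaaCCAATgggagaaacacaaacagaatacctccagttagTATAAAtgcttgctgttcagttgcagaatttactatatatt
Hist1h2bb (chr13:23746604-23746733, plus strand): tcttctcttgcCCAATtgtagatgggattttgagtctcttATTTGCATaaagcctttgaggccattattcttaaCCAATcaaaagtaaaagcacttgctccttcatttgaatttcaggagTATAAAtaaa
Hist1h4k (chr13:21750554-21750683, minus strand): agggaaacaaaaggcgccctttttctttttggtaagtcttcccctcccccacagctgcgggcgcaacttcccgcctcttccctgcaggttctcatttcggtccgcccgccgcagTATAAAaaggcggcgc
In these windows Hist1h2ab and Hist1h2bb showed an octamer, more than 1 CCAAT and a TATAAA, Hist1h1c showed CCAAT and Hist1h4k showed TATAAA. A match is a description of the letters and not evidence of binding.

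RNA that lacks a poly(A) tail was abundant in every library. Of 19 RNAs listed as lacking a tail, 17 had a value. The list includes Malat1 and Neat1, for which the lack of a tail holds only in part. The list was not also taken without them. Rpph1, the RNA of ribonuclease P, averaged 61932 FPKM (range 18600 to 142948) and Rmrp, the RNA of the related enzyme RNase MRP, averaged 9831 FPKM. The 7SK RNA Rn7sk was listed at 0 in 7 libraries and reached 156045 FPKM in another, and Rn7s1, Rn7s2 and Rny3 were listed at 0 in all 16. Rn7s6, named in the same series as Rn7s1 and Rn7s2 but not among the 19, was the highest of all genes in several libraries. It reached 164167 FPKM in sonidegib replicate 4 and 153542 FPKM in vehicle replicate 2. It also led in anti-PD-L1 replicate 3 and in combination replicates 2 and 4. The level of a short RNA is inflated by division by a small length, so these figures show presence rather than relative amount. Limma called 0 of the 14 tested between combination and vehicle (background 11.3%), with 1 at an unadjusted p under 0.05 (background 33.6%) and a median difference of -0.32. The median level of the 69 clustered histones was 84.6 FPKM, against 6.31 FPKM over 30 genes of DNA replication, whose transcripts are polyadenylated. Among the replication-independent histones, the H3.3 genes H3f3b and H3f3a averaged 872 and 339 FPKM and the H2A.Z gene H2afz 175 FPKM. The sum over the 12 clustered H3 genes was 0.713 to 1.25 times the sum of the H3.3 genes in the combination tumours, 0.708 to 1.72 times in the sonidegib tumours, 0.474 to 2.77 times in the anti-PD-L1 tumours and 0.700 to 3.51 times in the vehicle tumours.

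The summed level of the 69 genes varied several-fold between tumours of the same group. It was 13250, 7818, 4893 and 6986 FPKM in the combination tumours, 7611, 17374, 7298 and 11131 FPKM in the sonidegib tumours, 6512, 6305, 8923 and 17987 FPKM in the anti-PD-L1 tumours and 22853, 13410, 18838 and 8616 FPKM in the vehicle tumours. Each group held at least 1 tumour more than 2 times as high as another, and all groups overlapped. Group means were 8237 ± 3562 FPKM for the combination, 10854 ± 4681 FPKM for sonidegib, 9932 ± 5500 FPKM for anti-PD-L1 and 15929 ± 6224 FPKM for vehicle (SD, n = 4 each). With median-of-ratios scaling vehicle replicate 3, whose size factor was 0.468, had the highest sum, 40258 FPKM, ahead of vehicle replicate 1 at 23988 FPKM. The scaled means were 8033 ± 3831 FPKM for the combination, 9856 ± 4241 FPKM for sonidegib, 9304 ± 5379 FPKM for anti-PD-L1 and 21744 ± 13997 FPKM for vehicle (SD, n = 4 each), and the groups still overlapped. The genes made up 0.588 to 1.89% of all FPKM in a library. In bulk tissue, fewer cells in S phase and less histone RNA per cell cannot be told apart.

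**Figure D2:**
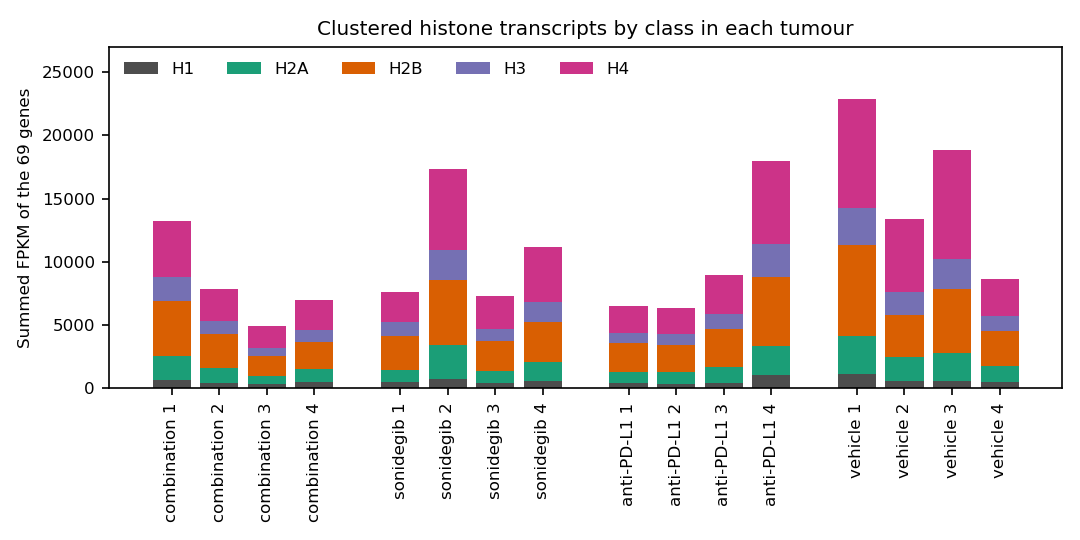
Summed FPKM of the 69 genes in each of 16 tumours, stacked by histone class. Sums run from 4893 FPKM in combination replicate 3 to 22853 FPKM in vehicle replicate 1, and within each group the highest tumour is at least 2.38 times the lowest.

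The genes varied together from tumour to tumour. Over the 67 genes that reached 1 FPKM in 4 or more libraries, the median Pearson correlation between a pair of genes across the 16 libraries was 0.91, and 97.1% of pairs were positive. After removal of group means the median was the same to 2 decimals. It was 0.97 within H4, 0.96 within H3, 0.95 within H2B, 0.91 within H2A and 0.80 within H1, against 0.67 within the DNA replication list, 0.75 within a mitosis list of 16 genes and 0.44 within the replication-independent histones. Pairs share libraries and, among copies, fragments, so these are descriptions. In vehicle replicate 1 and in combination replicate 1, 68 of 69 genes were above their own mean over the libraries, and in anti-PD-L1 replicate 4 there were 67. In combination replicate 3, sonidegib replicate 3 and anti-PD-L1 replicate 2 there was 1 gene above its mean. Hist1h2bc varied least of the genes with no value at 0, with a highest library 2.84 times its lowest, while the median gene had a ratio of 4.94. The proportions of the classes were steadier than the sum: H4 made up 31.7 to 34.6% of it in the combination tumours, 31.5 to 39.1% in the sonidegib tumours, 32.0 to 36.4% in the anti-PD-L1 tumours and 34.3 to 45.6% in the vehicle tumours.

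**Figure D3:**
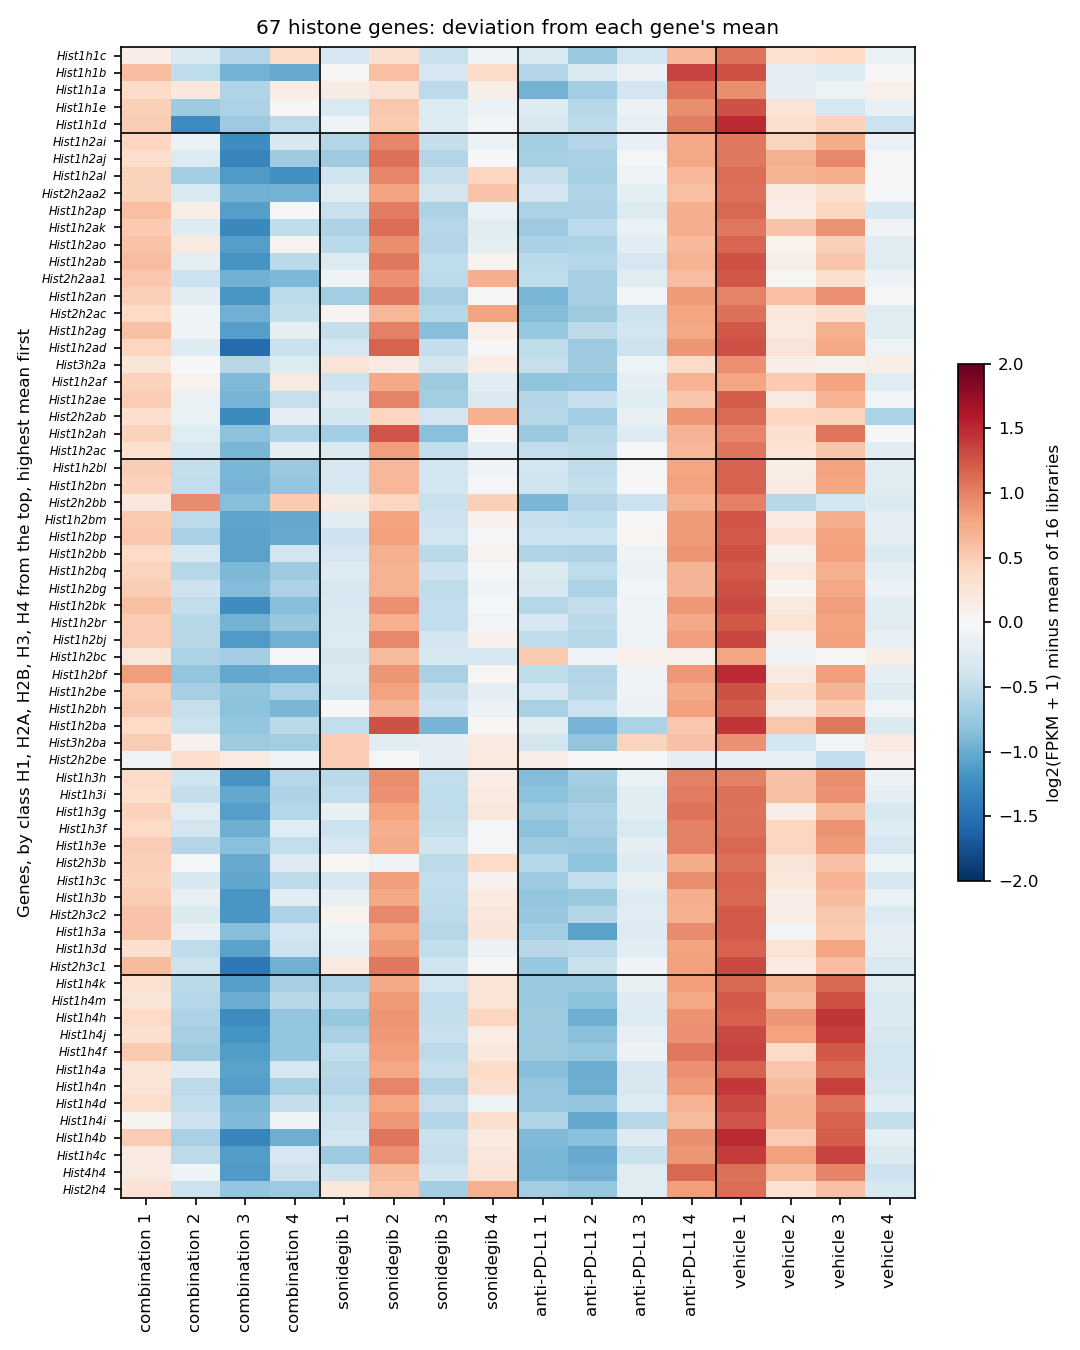
Deviation of log2(FPKM + 1) from the gene's own mean over 16 libraries for 67 clustered histone genes, by class, with tumours in columns by group and red above the mean. Columns are nearly uniform in colour: vehicle replicate 1, sonidegib replicate 2 and anti-PD-L1 replicate 4 are red throughout most classes, and combination replicate 3 is blue.

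Combination tumours were compared with vehicle tumours to ask whether both drugs together change these transcripts. Clustered histone levels were lower with the combination in 65 of 67 tested genes, with a median difference of -0.88 on the log2(FPKM + 1) scale (range -1.38 to 0.27), and none passed the test across all genes. All genes tested had a median difference of 0.26, and 31.7% of them were lower. Limma with Benjamini-Hochberg adjustment over 15105 genes called 0 of the 67 histone genes at 0.05, against a background of 11.3% of genes called in either direction and 0.953% called lower. The lowest adjusted p among the histone genes was 0.0539. At an unadjusted p under 0.05 there were 37, all lower, against a background of 33.6% of all genes in either direction and 5.03% lower: 13 of 13 H4 genes, 12 of 18 for H2B, 7 of 19 for H2A, 4 of 12 for H3 and 1 of 5 for H1. In none of the 67 did the groups fail to overlap, against 1.27% of all genes with every combination tumour below every vehicle tumour.

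The H4 genes had the largest differences as a class, with a median of -1.17 (range -1.38 to -0.83), against -0.91 for H2B, -0.82 for H3, -0.76 for H2A and -0.50 for H1. Hist1h4j had 398, 201, 138 and 186 FPKM in the combination tumours and 797, 556, 835 and 255 FPKM in the vehicle tumours. Combination replicate 1 lay above vehicle replicate 4 in this gene, and the others did not cross. The difference was -1.38 ± 0.48 (SE), with an adjusted p of 0.0620 in limma's test. Hist1h4b had 147, 65.2, 40.8 and 52 FPKM in the combination tumours and 291, 147, 239 and 91.2 FPKM in the vehicle tumours, a difference of -1.37 ± 0.49 (limma adjusted p = 0.0653), and combination replicate 1 again exceeded vehicle replicate 4. The highest gene, Hist1h4k, had 1294, 719, 489 and 661 FPKM in the combination tumours and 2321, 1717, 2318 and 895 FPKM in the vehicle tumours, a difference of -1.19 ± 0.46 (limma adjusted p = 0.0822).

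The lowest p belonged to Hist1h2al, a member named for H2A that is annotated as a processed pseudogene and has 32.4% own 50-base windows. It had 208, 93.7, 68.4 and 65 FPKM in the combination tumours and 328, 244, 251 and 154 FPKM in the vehicle tumours. Only combination replicate 1 reached into the vehicle range, and the difference was -1.28 ± 0.42 (limma adjusted p = 0.0539). Without both annotated pseudogenes, 35 of 65 genes had an unadjusted p under 0.05, the lowest adjusted p was 0.0620 and the median difference was unchanged to 2 decimals at -0.88. For H2B, Hist1h2bl had 1316, 666, 494 and 554 FPKM in the combination tumours and 2119.9, 1014, 1629.9 and 793 FPKM in the vehicle tumours, a difference of -0.88 ± 0.43 (limma adjusted p = 0.154), and combination replicate 1 exceeded 2 of the vehicle tumours. The H3 gene Hist1h3h had 414, 240.2, 139 and 213 FPKM in the combination tumours and 635, 474, 604 and 293 FPKM in the vehicle tumours, a difference of -1.04 ± 0.45 (limma adjusted p = 0.118), with the groups overlapping. The linker gene Hist1h1c had 181, 134, 109.7 and 215 FPKM in the combination tumours and 351, 204, 217 and 149.7 FPKM in the vehicle tumours, a difference of -0.50 ± 0.35 (limma adjusted p = 0.321), and combination replicate 4 exceeded 2 of the vehicle tumours. The only tested genes with a higher mean with the combination were a pair of H2B genes of the Hist2 cluster. Hist2h2bb had 418, 691, 199 and 516 FPKM in the combination tumours and 723, 243, 275 and 295 FPKM in the vehicle tumours, a difference of 0.26 ± 0.45 (limma adjusted p = 0.708), and Hist2h2be, near 1 FPKM, had a difference of 0.27 ± 0.19 (limma adjusted p = 0.317).

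How many of these genes passed depended on single tumours and on the scaling. Without vehicle replicate 4, 32 of the 67 were called lower, beside 33.0% of all genes called in either direction. Without combination replicate 1 there were 34, beside 28.2% of all genes called in either direction. Vehicle replicate 4 was the vehicle tumour lowest in histones and combination replicate 1 the combination tumour highest in them. Without any other vehicle or combination tumour the count was 0, and the share of all genes called in those fits is not given here. The median difference lay between -1.16 and -0.66 over all tumours left out in turn. Quantile normalization called 24 lower and median-of-ratios scaling 3, beside 17.4% and 18.7% of all genes called in either direction. The share of all genes called lower in these settings is not given here. These scalings brought the median of all genes to -0.03 and 0.01. Among the 12 tested genes with at least 80% own 50-base windows, the median difference was -0.86 (range -1.27 to 0.27).

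Each drug alone was compared with the same vehicle tumours, so these comparisons share their controls. Anti-PD-L1 tumours had lower histone means in 66 of 67 genes, against 23.9% of all genes, with a median difference of -0.64, against 0.30 over all genes. Limma called 0 of 67 (background 0%), 8 had an unadjusted p under 0.05, all lower (background 24.6% in either direction and 1.07% lower), and the lowest adjusted p was 0.158. H4 led here too, with a median of -0.997 and 7 of the 8. Hist1h4c had 48, 45.1, 66.8 and 169 FPKM in the anti-PD-L1 tumours and 243, 162, 235 and 74.6 FPKM in the vehicle tumours, a difference of -1.19 ± 0.47 (limma adjusted p = 0.158). Anti-PD-L1 replicate 4 lay above 2 of the vehicle tumours and the other 3 lay below all of them. Hist1h4i followed with -1.06 ± 0.43 (limma adjusted p = 0.165) and Hist1h4d with -0.997 ± 0.42 (limma adjusted p = 0.170). Without vehicle replicate 4, 9 of the 67 were called lower, beside 26.2% of all genes called in either direction. The median of the 67 lay between -0.94 and -0.37 over all tumours left out in turn.

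Sonidegib tumours had lower histone means in 65 of 67 genes, against 22.2% of all genes, with a median difference of -0.50, against 0.33 over all genes. Limma called 0 of 67 (background 0%), 0 had an unadjusted p under 0.05 (background 27.3% in either direction and 1.36% lower), and the lowest adjusted p was 0.219. Hist1h4d had 113, 276, 116 and 148 FPKM in the sonidegib tumours and 402, 258, 343 and 136 FPKM in the vehicle tumours, a difference of -0.79 ± 0.42 (limma adjusted p = 0.219). Sonidegib replicate 2 lay above 2 of the vehicle tumours. The median of the 67 lay between -0.76 and -0.26 over all tumours left out in turn. The H4 median was -0.69, and the next lowest p-values belonged to Hist1h4c at -0.83 ± 0.47 and Hist1h4j at -0.82 ± 0.48 (limma adjusted p = 0.243 and 0.260). Hist2h2bb and Hist2h2be had higher means with sonidegib, by 0.21 ± 0.45 and 0.30 ± 0.19 (limma adjusted p = 0.768 and 0.281).

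**Figure D4:**
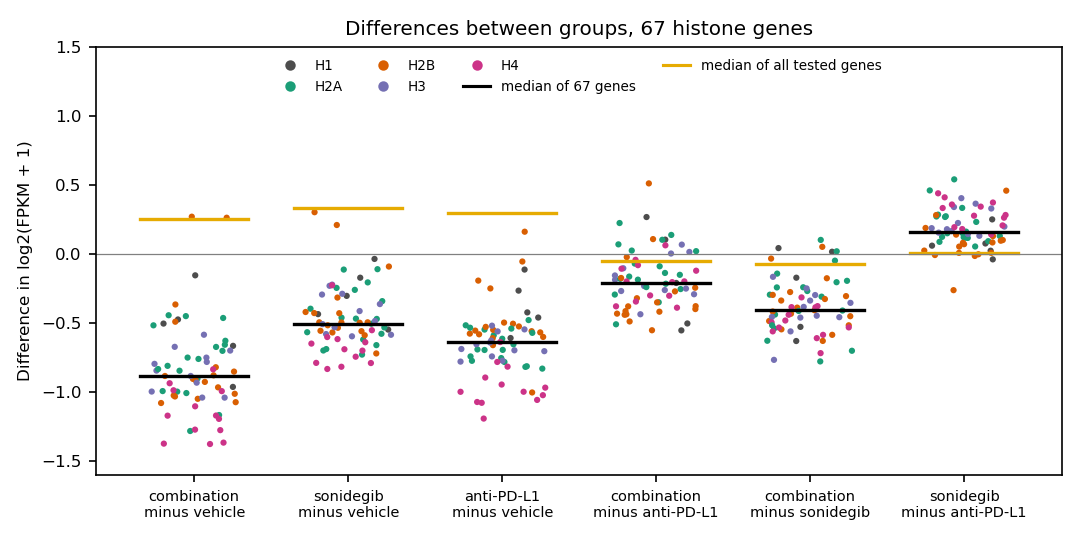
Difference in log2(FPKM + 1) for each of 67 clustered histone genes in 6 comparisons, coloured by class, with black bars at their median and yellow bars at the median of all 15105 tested genes. In the comparisons with vehicle the histone medians are -0.88, -0.50 and -0.64 and the medians of all genes are 0.26, 0.33 and 0.30.

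Between treated groups the differences were smaller and changed with single tumours. Combination tumours were lower than anti-PD-L1 tumours by a median of -0.21 (range -0.55 to 0.51), with 53 of 67 genes lower, against 56.3% of all genes. Hist1h2bc had the lowest p, at 54.2, 29.7, 28.3 and 45.3 FPKM in the combination tumours and 66.7, 43.7, 49.4 and 49.4 FPKM in the anti-PD-L1 tumours, a difference of -0.44 ± 0.30 (limma adjusted p = 0.855), with the groups overlapping. Hist1h2bp and Hist1h1b both had a difference of -0.55 (limma adjusted p = 0.883 for each). Combination tumours were lower than sonidegib tumours by a median of -0.41 (range -0.78 to 0.10), with 62 of 67 genes lower, against 60.0% of all genes, and Hist1h2al had the lowest p at -0.78 ± 0.42, followed by Hist2h2aa1 at -0.70 ± 0.41 and Hist2h3c1 at -0.77 ± 0.45 (limma adjusted p = 0.959 for all 3). Sonidegib minus anti-PD-L1 had a median of 0.16 (range -0.26 to 0.54), with 5 of 67 genes lower, against 47.6% of all genes, and the lowest p-values belonged to Hist2h2ac at 0.54 ± 0.41, Hist2h2aa1 at 0.46 ± 0.41 and Hist2h4 at 0.41 ± 0.39 (limma adjusted p = 1 for all 3). Leaving out 1 tumour at a time moved the median to between -0.47 and 0.11 for the combination against anti-PD-L1, to between -0.66 and -0.16 for the combination against sonidegib, and to between -0.10 and 0.50 for sonidegib against anti-PD-L1. Limma called 0 of 67 in each of these comparisons (backgrounds 0.00662%, 0% and 0%), with 0 at an unadjusted p under 0.05 (backgrounds 5.78%, 4.28% and 2.09%).

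The interaction asks whether the combination differed from the sum of the single-drug differences. Its median was 0.29 over the 67 genes, against -0.35 over all genes, with a median SE of 0.60 and leave-one-out medians between 0.01 and 0.58, and limma called 0 of 67 (background 0.00662%), with 0 at an unadjusted p under 0.05 (background 9.88%). The lowest p belonged to Hist1h2af, an H2A gene, at 0.84 ± 0.54 (limma adjusted p = 0.506), followed by Hist1h1c at 0.65 ± 0.49 and Hist1h4d at 0.68 ± 0.59 (limma adjusted p = 0.542 and 0.588). Across the 4 groups at once, limma called 0 of 67 (background 0.0199%), and Hist1h2al was the single gene with an unadjusted p under 0.05 (background 23.7%; limma adjusted p = 0.206). Hist1h4c and Hist1h4j came next (limma adjusted p = 0.215 and 0.227). Without vehicle replicate 4 there were 3 calls, beside 22.2% of all genes, and without combination replicate 1 there was 1, beside 12.2%. Hist1h2ba, the germ-cell H2B gene and the single tested member of that set, had 5.12, 2.47, 1.73 and 2.22 FPKM in the combination tumours, 2.32, 10.3, 1.45 and 3.72 FPKM in the sonidegib tumours, 2.95, 1.46, 2 and 5.79 FPKM in the anti-PD-L1 tumours and 11.6, 5.78, 8.71 and 2.83 FPKM in the vehicle tumours. Its difference between combination and vehicle was -1.02 ± 0.45 (limma adjusted p = 0.125). Hist1h2ba had 61.8% own 50-base windows, and whether fragments of other H2B copies are counted in it was not tested.

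Genes that make, handle or accompany histone RNA were set beside the clustered genes, and the medians of these 5 lists lay between 0.00 and 0.66 for combination minus vehicle. Over all genes the median was 0.26, and limma called 10.3% higher and 0.953% lower. In the list of histone RNA processing and transcription factors, 19 of 23 genes were tested and limma called 3 higher and 0 lower in combination tumours against vehicle, 15.8% against a background of 11.3%, with a median difference of 0.20. Those that rose were Eri1, the exonuclease that trims and degrades histone RNA, at 0.99 ± 0.29 (limma adjusted p = 0.0399), Cpsf2, a subunit of the cleavage complex, at 0.90 ± 0.28 (limma adjusted p = 0.0448), and Ncbp2, a subunit of the cap-binding complex, at 1.35 ± 0.36 (limma adjusted p = 0.0357). The highest in level were Srrt, Tut7 and Sympk, at means of 24.6, 16.9 and 14.1 FPKM. Slbp averaged 10.8 FPKM in combination tumours and 6.85 FPKM in vehicle tumours, a difference of 0.72 ± 0.29 (limma adjusted p = 0.0899). The calls and the direction of this list depended on the setting. Quantile normalization called 4 higher and 2 lower with a median of -0.12, and median-of-ratios scaling called 4 higher and 3 lower with a median of -0.08. With the GC trend removed 0 were called higher and 1 lower (median 0.08), and without vehicle replicate 3 the median was -0.05. No gene of the list was called without any 1 of vehicle replicates 1 to 3 or combination replicates 2 to 4, with GC and length trends removed, with no filter, or in a fit of only the 2 groups. The share of all genes called there is not given here, so these losses are not shown to be particular to this list.

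Of 30 DNA replication genes tested, limma called 7 higher and 0 lower in combination tumours against vehicle, 23.3% against a background of 11.3%, with a median difference of 0.39, against 0.26 over all genes. They included Gins1 at 1.36 ± 0.30 and Gins4 at 1.15 ± 0.27 (limma adjusted p = 0.0342 for both), subunits of the replicative helicase, and Prim1, the primase, at 1.25 ± 0.33 (limma adjusted p = 0.0357). Of 21 histone chaperones, 5 were called higher and 0 lower, 23.8% against the same background, with a median of 0.52, led by Npm1 at 2.16 ± 0.58, Hat1, which acetylates new H4, at 1.71 ± 0.40 and Nasp, a chaperone of H3 and H4, at 1.39 ± 0.38 (limma adjusted p = 0.0362, 0.0342 and 0.0369). The highest in level were Pcna, the sliding clamp, Tk1 and Tyms among the replication genes, at means of 42.5, 31.4 and 19.0 FPKM, and Npm1, Atrx and Rbbp7 among the chaperones, at 155, 38.6 and 33.7 FPKM. Of the 16 mitosis genes, led in level by Cdk1, Birc5 and Top2a at 27.8, 24.2 and 21.1 FPKM, limma called 0 (background 11.3%), with 7 at an unadjusted p under 0.05 (43.8%, background 33.6%) and a median of 0.66. The medians of the replication, chaperone and mitosis lists were 0.11, 0.21 and 0.40 under quantile normalization, 0.13, 0.25 and 0.50 under median-of-ratios scaling, and 0.07, 0.12 and 0.19 with the GC trend removed. Both scalings called 1 chaperone lower beside 5 higher.

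No replication or chaperone gene was called without vehicle replicate 1, 2 or 3, without combination replicate 2 or 4, with GC and length trends removed, with no filter, or in a fit of only the 2 groups. With the GC trend alone removed there were 2 in each list. The share of all genes called in these settings is not given here, so these counts are not shown to be particular to these lists. Without vehicle replicate 4 there were 14 replication genes, 9 chaperones and 9 mitosis genes, all higher, beside 33.0% of all genes called in either direction. Without combination replicate 1 there were 10 replication genes and 7 mitosis genes, all higher, and 9 chaperones higher and 1 lower. All genes called in either direction made up 28.2% there. Of 10 tested genes listed as replication-independent histones, limma called 0 (background 11.3%), with a median of 0.00 over the list. An unadjusted p under 0.05 was found for 3 (30.0%, background 33.6%): H2afx at -1.05 ± 0.36, H2afz at 0.82 ± 0.38 and H3f3a at 0.86 ± 0.38 (limma adjusted p = 0.0576, 0.135 and 0.116). H2afx was thus lower and H2afz and H3f3a higher. Whether all transcripts of each listed gene are polyadenylated and independent of replication was not tested. The list was not also taken without H2afx. Quantile normalization and median-of-ratios scaling each called 2 of the 10 lower, with medians of -0.32 and -0.31, and the median was -0.29 without vehicle replicate 3.

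Over the 16 libraries, the mean log2 deviation of the 69 histone genes was set against other measures of the same libraries, 9 in all, as descriptions without a test. Pearson's r with the DNA replication list was -0.26 (Spearman's rho -0.06), and without the 2 libraries farthest from the median of that list it was 0.11. With the mitosis list r was -0.37 (rho -0.34), with the histone RNA factors -0.46 (rho -0.47), with the chaperones -0.51 (rho -0.48), and with the replication-independent histones 0.19 (rho 0.50). With the RNAs lacking a poly(A) tail it was 0.04 (rho 0.15). Vehicle replicate 3 had the lowest value of the DNA replication list, at -1.14, and the second-highest histone sum.

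The closest relation was with GC content. The slope of the other tested genes' deviations against GC content, per 10 percentage points of GC, had r = 0.86 (rho 0.83) with the histone deviation, 0.78 without the 2 farthest libraries and 0.81 after removal of group means. The clustered genes had a median GC content of 58.3%. The slope was -0.39 to 0.21 in the combination tumours, -0.21 to 0.27 in the sonidegib tumours, -0.19 to 0.03 in the anti-PD-L1 tumours and -0.05 to 0.45 in the vehicle tumours. With the GC trend of each library removed, the median difference between combination and vehicle was -0.81, and 0 of 67 genes were called, with 28 at an unadjusted p under 0.05. With GC and length trends removed the median difference was -0.92, with 0 called. The share of all genes passing in these fits is not given here, so the 28 have no background beside them. The other tested genes with at least 58% GC had r = 0.54 with the histone deviation (rho 0.60), and other short genes had r = -0.36 (rho -0.20). Of the tested protein-coding genes under 600 bases, 35 of 129 are clustered histone genes.

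**Figure D5:**
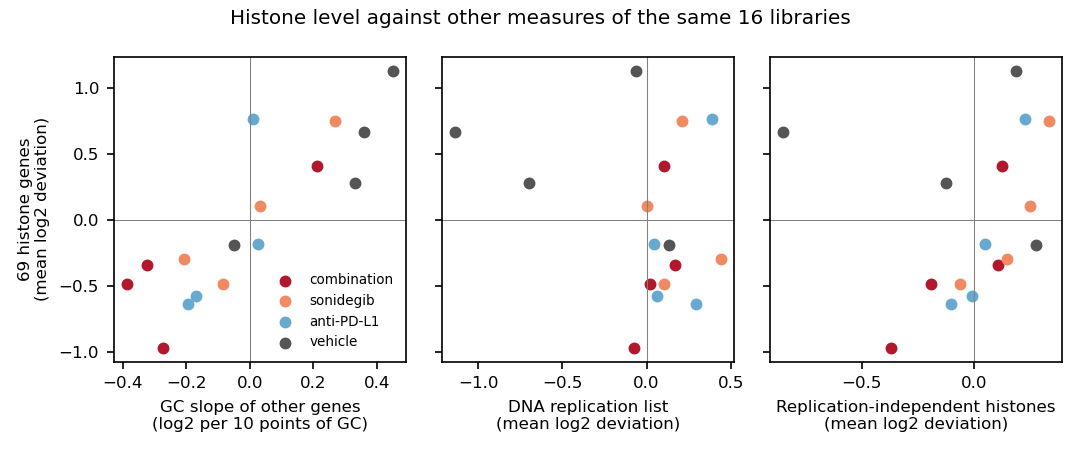
Mean log2 deviation of the 69 clustered histone genes in each library against the GC slope of other tested genes (left), the DNA replication list (middle) and the replication-independent histones (right), 16 tumours coloured by group. Points follow a rising line in the left panel (r = 0.86) and none in the middle panel (r = -0.26), where vehicle replicates 3 and 2 lie far to the left.

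Depth, estimated from the smallest steps between FPKM values, was about 33.9 to 58.9 M fragments per library, and whole fragment counts could not be recovered. Only 23.8% (vehicle replicate 3) to 31.7% (combination replicate 2) of the low values used lay within 0.1 of a whole number of steps. The depth figures are therefore rough. Vehicle replicate 3 stood apart, with 11361 genes at 1 FPKM or more, against 13107 to 14784 in the other libraries. The tumour label was checked with 7 epithelial markers, all of which were tested and which summed to 906 to 1802 FPKM in the combination tumours, 965 to 2026 FPKM in the sonidegib tumours, 1021 to 1451 FPKM in the anti-PD-L1 tumours and 535 to 2178 FPKM in the vehicle tumours. The 7 leukocyte markers, 4 of them tested, summed to 40.2 to 199 FPKM in the combination tumours, 41.3 to 67.4 FPKM in the sonidegib tumours, 36.6 to 67.5 FPKM in the anti-PD-L1 tumours and 25.0 to 64.3 FPKM in the vehicle tumours. Of these markers limma called 0 of 7 epithelial and 1 of 4 leukocyte genes between combination and vehicle (background 11.3% of all genes), beside 2 of 5 fibroblast, 0 of 4 endothelial, 0 of 3 muscle genes and the 1 adipocyte gene tested, all of the called ones higher, and no marker was at 0 in all libraries. Their part in the histone differences was not tested. The library numbers run through vehicle, anti-PD-L1, sonidegib and combination in turn, so library order and treatment cannot be told apart.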

How the data were processed

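RNA of 16 tumours was isolated with Qiazol, and stranded libraries depleted of ribosomal RNA were made, per the labels' protocols. The authors deposited FPKM values of 55146 genes, made with TopHat and Cufflinks on GRCm38.p6 or mm10 per the submitters' processing notes. Tool versions, annotation and strand settings: not given in the sources used here. Columns were matched to tumours by the library number in the labels. All 69 identifiers matched GENCODE M21 with their version.

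The 15105 genes that reached 1 FPKM in 4 or more libraries were tested on log2(FPKM + 1), which understates changes of low genes. Limma 3.58.1 in R 4.3.3 fitted 4 group means over 16 libraries with a trend and robust variances. Tests were two-sided with Benjamini-Hochberg adjustment at 0.05 over all genes, in 8 comparisons. The method was tested on simulated data. Differences are first-named minus second-named group.

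The genes and lists were chosen with earlier results of these data known. Genes are named by level (the 2 highest of each class), by p (the 3 lowest of each comparison), by cluster (Hist2, Hist3, Hist4) or as germ-cell genes, and in other lists as the 3 highest and up to 3 called, with Slbp, Hist2h2be and examples from the uniqueness, promoter, back-to-back and RNA sections added after values were seen. Alternatives covered normalization, filters, pseudocount, GC and length trends, variance model, replicate numbers, and leaving out each tumour. Python 3 scripts searched transcripts and promoters.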

Additional observations from a re-analysis of the deposited data

Results flagged for a closer look

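In 13 of 168 groups of 4 tumours examined for a class sum or a gene, the gap between the most extreme tumour and its nearest neighbour took up nearly the whole range of the group. For a single group of normally distributed values chance gives about 1 in 20. These groups share tumours and, among copies, fragments, so the 13 cannot be weighed against that figure. In combination replicate 1, Hist1h2bp was at 293 FPKM and Hist1h4f at 336 FPKM, each above the other 3 combination tumours. In sonidegib replicate 2, Hist1h2bc was at 72.1 FPKM. In anti-PD-L1 replicate 4, the H1 genes summed to 1022 FPKM, Hist1h1b was at 283 FPKM and Hist2h2ac at 79.3 FPKM. In vehicle replicate 1, the H1 genes summed to 1142 FPKM, Hist1h1b was at 267 FPKM, Hist3h2a at 33.3 FPKM and Hist2h2bb at 723 FPKM. Hist1h2aa, near the limit of detection, was listed at 0.0973 FPKM in sonidegib replicate 3 and 0.188 FPKM in anti-PD-L1 replicate 1, where the other tumours of each group were at 0, and at 0 in vehicle replicate 3, where the other vehicle tumours had a value.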

How the results depend on the processing

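Of the 67 histone genes, 0 were called between combination and vehicle, against 24 with quantile normalization and 3 with median-of-ratios scaling. Leaving out 1 tumour at a time gave 0 to 34 calls in that comparison (1 of them without sonidegib replicate 2), 0 to 9 between anti-PD-L1 and vehicle, 0 to 3 across the 4 groups and 0 in the other 5 comparisons. The cause was not tested. No other setting run, among them no filter, a pseudocount of 0.1, GC or length trends removed and fits of only the groups compared, called a histone gene. Of the named genes' differences under these settings, 56 between combination and vehicle and 7 between anti-PD-L1 and vehicle became calls, none reversed, and none elsewhere became a call. Genes ending at the stem-loop numbered 3 at 20 bases and 19 at 50.

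Replicate numbers repeat in each group. Deviations of same-numbered tumours correlated at -0.43 to 0.34, 4 of 24 pairs were over 0.1, and 0 libraries correlated best with their own number, so the numbers were not taken as pairs. With the replicate number as a block, 0 histone genes were called in each comparison, 29 between combination and vehicle at an unadjusted p under 0.05. The share of all genes passing in that fit is not given here, so the 29 have no background beside them. By the rough depth estimate, values near 0.1 FPKM are close to single fragments for a short transcript such as that of Hist1h2aa.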
